A study of Mus musculus with 16 samples.

Results

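The cells described are 164 human pancreatic islet beta cells, the insulin-secreting endocrine cells, among 1081 single cells of one count matrix. A cell was taken as a beta cell where the deposited annotation of the cells listed it as one. The other 917 cells were 437 alpha, 135 ductal, 111 acinar, 74 gamma, 59 delta, 23 stellate (PSC) and 13 endothelial cells, 5 epsilon and 4 mast cells, 1 MHC class II cell, 25 cells labelled co-expression, 29 unclassified endocrine cells and 1 unclassified cell. All 1081 came from 6 donors whose disease label was normal, which the series describes as donors without type 2 diabetes, and each carried the well quality label OK. The series itself studied a mouse beta-cell line, BetaTC6, with and without the purinergic receptor P2ry1, under high glucose with or without ivermectin. The human cells came from an earlier study of pancreas by another group and were quantified again by the submitters. The mouse libraries were not used here, and beta cells of donors with diabetes were not analysed here.

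Beta cells take up glucose, phosphorylate it and oxidise it. The resulting rise in ATP closes ATP-sensitive potassium channels, the membrane depolarises, calcium enters and granules holding processed insulin are released. Hormones, fatty acids and nucleotides change that release through G-protein-coupled receptors, among them P2RY1, which responds to ADP and signals through Gq, phospholipase C and calcium stores. The cells are kept distinct from neighbouring glucagon-secreting alpha, somatostatin-secreting delta and pancreatic polypeptide-secreting gamma cells by transcription factors such as PDX1, NKX6-1 and MAFA, while acinar and ductal cells form the exocrine pancreas.

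Depth varied more between donors than between cell types. Total counts per beta cell ran from 21100 to 2532801 with a median of 547765, and the donors' medians from 61281 to 1335427. A median of 5406 genes had a count in a beta cell. Mitochondrial transcripts made up 12% to 28.9% of the counts of beta cells over the donors' medians, against 6.27% to 15.2% in alpha cells, and their part in the differences below was not tested beyond leaving them out of the totals. Counts were summed over the 10 to 41 beta cells of each donor and scaled to counts per 1000000 counts (CPM). Another type was compared within a donor that had at least 5 of its cells, which left 6 donors for alpha, 5 for delta, 4 for gamma, 2 for acinar and 5 for ductal cells. A difference is the mean over donors of log2(CPM + 1) in beta cells minus that in the other type, given ± SD over donors. This scale damps differences of genes near 0. The annotation rested on the RNA of the cells themselves, so differences between types are descriptions and no test was made. A gene counted as higher or lower when the difference was at least 2, or at most -2, with the same sign in every donor, among genes that averaged at least 10 CPM in either type.

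Over all genes, 159 of 9297 counted (1.71%) were higher in beta than in alpha cells and 449 (4.83%) lower. Against delta cells 200 of 9225 (2.17%) were higher and 201 (2.18%) lower, and against gamma cells 333 of 9846 (3.38%) were higher and 659 (6.69%) lower. Counts against these types varied with the donors used. Leaving out 1 donor gave 217 to 306 higher and 231 to 307 lower against delta cells, and 300 to 595 higher against gamma cells. Requiring 10 cells of a type left 3 donors for delta cells and gave 334 higher and 369 lower. The sign rule is easier to meet with fewer donors, so a rise in these counts does not by itself show dependence on a single donor. In the lists of genes described below, shares and medians of all counted genes are given in the order alpha, delta and gamma. Against acinar cells, with 2 donors, 963 and 965 of 9349 (10.3% each) were higher and lower, and against ductal cells 556 of 10115 (5.5%) were higher and 1341 (13.3%) lower. The share of the differing genes that were higher moved by over 10 percentage points with scaling in 3 comparisons. With hormones and acinar enzymes left out of the totals 179 genes were higher and 293 lower against delta cells, and with TMM factors 442 were higher and 468 lower against gamma cells and 724 higher and 1069 lower against ductal cells. With mitochondrial transcripts out of the totals, an alternative chosen after seeing the data, 195 were higher and 429 lower against alpha cells. With a pseudocount of 10 CPM, 50 were higher and 104 lower against alpha cells. Of 299 differences of named genes that counted, 209 still did so at that pseudocount. Those that no longer did against alpha cells included NKX6-1, RPH3A, SEMA3E, HNF4A, GLIS3, TXNIP, P2RY1, ITPR3, PRKCA, GLP1R, GCGR, ADRB1, SSTR1, BHLHE41, NR4A1, BTG2, CD9 and NPY. Against delta cells they included NKX6-1, RPH3A, FABP5, SEMA3E, FABP5P7, PFKFB2, CDKN1C, MNX1, PDK4, RORB, IER2 and ID1. Against gamma cells they included MAFA, PDX1, NKX6-1, RPH3A, FABP5P7, SLC2A1, SLC2A3, PDK4, LDHA, KCNK17, CACNA1H, KCNH2, CADPS2, P2RY1, ENTPD2, ITPR3, GLP1R, GCGR, RORA, DNAJB9, FOSB, JUNB, IER2 and IER3. The 5 comparisons share the beta-cell libraries, so their counts are given side by side and no overlap between them is given.

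The annotated beta cells carried all 5 of their markers. INS, the insulin gene, ran from 63474 to 237638 CPM (median 169578) over the 6 donors. In alpha cells it ran from 78.9 to 363 CPM (median 158), so the groups did not overlap, and the difference was 9.63 ± 0.56. In delta cells it stood at 66.7, 187, 312, 322 and 22076 CPM, with 1 donor far above the rest. IAPP, which encodes the amyloid peptide co-secreted with insulin, ran from 2006 to 11864 CPM (median 5521) in beta cells and from 1.71 to 47.7 CPM (median 6.66) in alpha cells, a difference of 9.09 ± 1.32. Without the cells that drew over 1% of their counts from another islet hormone, an alternative chosen after seeing the data that removed 2 delta cells, the INS difference from delta cells was 9.16 in place of 8.11 ± 2.65. INS counts were also found in 430 of 437 alpha cells (98.4%), 106 of 111 acinar cells (95.5%) and 130 of 135 ductal cells (96.3%). Some cells outside the beta label were rich in INS too. In the 25 co-expression cells INS took a median of 8.67% of a cell's counts and at most 20.6%. In the 29 unclassified endocrine cells the median was 0.0920% and the highest cell 38.2%.

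MAFA, a transcription factor of mature beta cells, ran from 11.5 to 161 CPM (median 44.2) in beta cells and stood at 0, 0, 0, 1.57 and 15.7 CPM in delta cells and 0, 0, 0 and 0.163 CPM in gamma cells. The highest delta value lay above the lowest beta value, while gamma cells were at or near 0. Its differences were 5.24 ± 1.20 against alpha, 4.28 ± 0.88 against delta and 4.61 ± 0.92 against gamma cells. A MAFA count was found in 133 of 164 beta cells (81.1%), 14 of 437 alpha cells (3.2%) and 3 of 59 delta cells (5.08%). With every cell thinned to 100000 counts the shares were 67.6% of 142 beta cells and 1.83% of 382 alpha cells.

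PDX1, which activates the insulin gene and is also used in the early pancreas, ran from 23.9 to 614 CPM (median 228) in beta cells. Its levels were 14.8, 37, 45, 126 and 168 CPM in delta cells and 11.4, 27.2, 75.7, 114 and 118 CPM in ductal cells, ranges that overlapped that of beta cells. The difference was 6.75 ± 1.40 against alpha and 2.20 ± 1.24 against gamma cells, both counted as higher, and 1.38 ± 0.95 against delta and 1.95 ± 0.84 against ductal cells, neither of which reached 2. Leaving out 1 donor brought the difference from gamma cells to 1.82 and that from acinar cells from 3.36 to 1.92. NKX6-1, a repressor of the alpha-cell programme, ran from 21.8 to 145 CPM (median 96.1) in beta cells and from 6.11 to 21.6 CPM (median 14) in alpha cells. It counted as higher against all 5 types, with the smallest difference, 2.50 ± 0.49, against alpha cells and 2.78 ± 1.71 against delta cells. The highest delta donor, at 46.3 CPM, lay above the lowest beta donor, and leaving hormones out of the totals (2.66), averaging over cells (2.48) or dropping cells with another hormone (2.98) kept the mean above 2, but the sign was no longer the same in every donor and the delta call ended. With a pseudocount of 10 CPM the NKX6-1 differences from alpha, delta and gamma cells were 1.94, 1.76 and 1.91, and none of these counted.

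**Figure D1:**
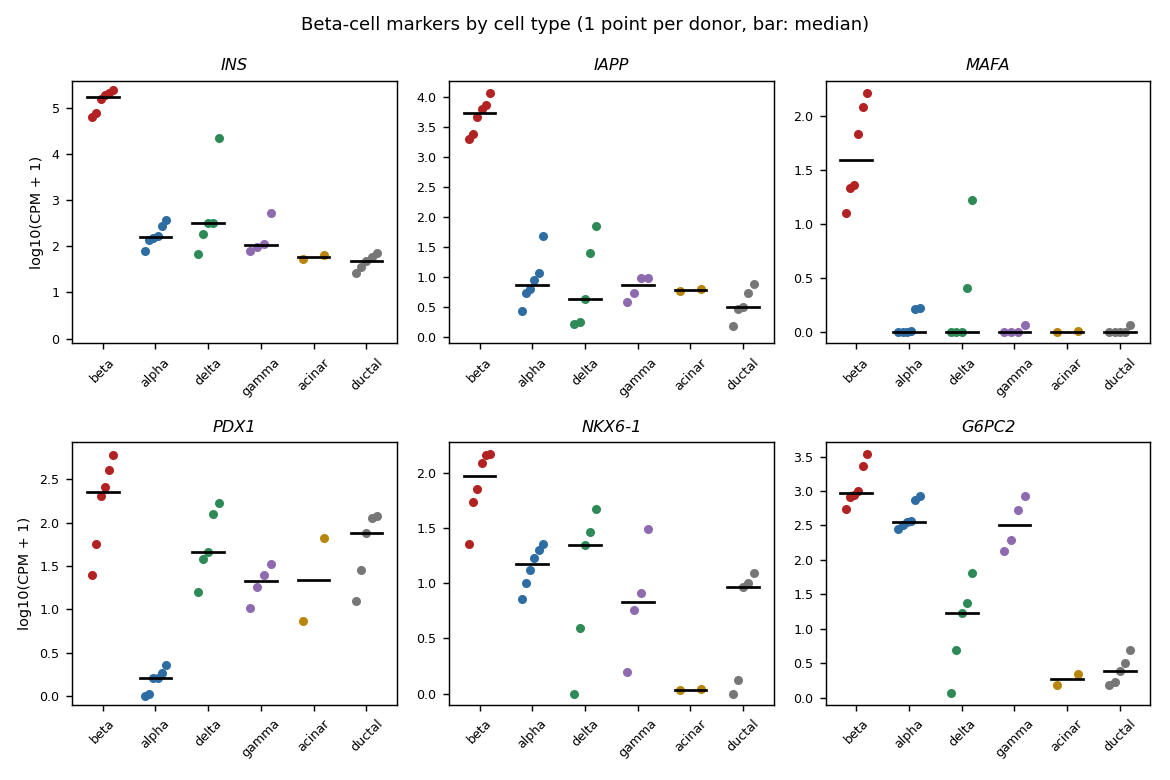
Levels of the 5 beta-cell markers and of G6PC2 as log10(CPM + 1) in 6 cell types; each point is 1 donor's summed cells and the black bar is the median of the points. INS and IAPP of beta cells lie above every other type, while the PDX1 ranges of beta, delta and ductal cells overlap.

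Markers of the 5 compared cell types summed to far less in beta cells than in their own cells, and were not absent. The hormones of the other endocrine cells, GCG (glucagon), SST (somatostatin) and PPY (pancreatic polypeptide), ran from 28.7 to 315 CPM (median 216), from 10.1 to 1022 CPM (median 47) and from 3.72 to 86.9 CPM (median 26.1), against medians of 109889, 261535 and 119888 CPM in their own cells. A single beta cell drew 6.46% of its counts from SST, and no beta cell had over 1% from GCG or PPY. The 15 alpha-cell markers summed to between 1511 and 5123 CPM over donors, against 129191 to 239219 in alpha cells, and TTR, the thyroid hormone carrier transthyretin and the most abundant of them, ran from 1439 to 4882 CPM (median 2796). The 14 delta-cell markers summed to 89.1 to 1144 CPM, against 177064 to 368089 in delta cells. The 13 gamma-cell markers summed to 402 to 839 CPM, against 89639 to 213788 in gamma cells. For the 18 acinar markers the sums were 2.92 to 336 CPM, against 118882 to 224763 in acinar cells. For the 15 ductal markers they were 9.04 to 102, against 9076 to 40024 in ductal cells. The 13 immune markers summed to 24.8 to 86.4 and the 7 epsilon markers to 20.4 to 153. Stellate markers reached at most 15.7, endothelial 1.95, mast 5.58 and Schwann 1.74 CPM.

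The 10 genes with the largest smallest difference over the 5 comparisons were IAPP, INS, DLK1, CYYR1, WSCD2, PLUT, MAFA, CAPN13, RPH3A and IGF2. DLK1, an imprinted gene for a membrane protein of the Notch ligand family, ran from 4.39 to 2406 CPM (median 126) in beta cells, with 1 donor far above the others, and from 0 to 2.31 CPM (median 0.0761) in alpha cells. Its smallest difference was 5.71 ± 2.00, against delta cells. CYYR1 ran from 34 to 160.1 CPM (median 70.2) in beta and from 0 to 4.08 CPM (median 1.17) in alpha cells. WSCD2 ran from 16.3 to 149 CPM (median 78.4) in beta and from 0 to 14.7 CPM (median 0.176) in delta cells. PLUT, a non-coding RNA of the PDX1 locus, ran from 16 to 82.4 CPM (median 27.7) in beta cells and from 0 to 0.607 CPM (median 0.101) in gamma cells. The counting of strand is not given in the sources used here, so its reads and those of an overlapping gene cannot be told apart. CAPN13, of the calpain protease family, ran from 15.4 to 80.3 CPM (median 38.9) in beta cells and at most 0.786 CPM in delta cells. RPH3A, a Rab3 effector on secretory granules, ran from 4.42 to 89.5 CPM (median 15.4) in beta cells and was at 0 in all 5 delta donors. IGF2, an insulin-like growth factor next to INS, ran from 17.1 to 133 CPM (median 70.3) and missed the rule against ductal cells (3.92 ± 2.70, higher in 4 of 5 donors). Reads of the INS-IGF2 read-through transcript may have been split between them. The low genes are the least firm here. With a pseudocount of 10 CPM, RPH3A fell to 1.71 against alpha, 1.38 against delta, 1.98 against gamma and 1.47 against ductal cells. PLUT fell to 1.97 and CAPN13 to 1.996 against ductal cells, and MAFA to 1.82 against gamma cells.

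The 5 genes that were lower against every endocrine type by the widest margin were SERPINA1, KCTD12, FABP5, SEMA3E and FABP5P7. SERPINA1, which encodes the protease inhibitor alpha-1 antitrypsin, ran from 0.0962 to 48.6 CPM (median 1.88) in beta cells, from 271 to 3071 CPM (median 569) in alpha, from 222 to 1082 CPM (median 495) in delta and from 187 to 1763 CPM (median 1172) in gamma cells, and the groups did not overlap. Its differences were -7.22 ± 1.44, -6.86 ± 2.15 and -8.03 ± 1.18 in that order. KCTD12, an auxiliary subunit of GABA-B receptors, was at most 1.25 CPM in beta cells and at least 42.5 in alpha, 9.49 in delta and 21.5 in gamma cells. FABP5, a fatty acid-binding protein, was at most 0.545 CPM in beta cells and ran from 68.6 to 244 CPM (median 103) in alpha cells. FABP5P7 is its pseudogene and the reads of both are uncertain. SEMA3E, a semaphorin guidance factor, ran from 0 to 8.47 CPM (median 0.143) in beta and from 122 to 270.3 CPM (median 151) in gamma cells.

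**Figure D2:**
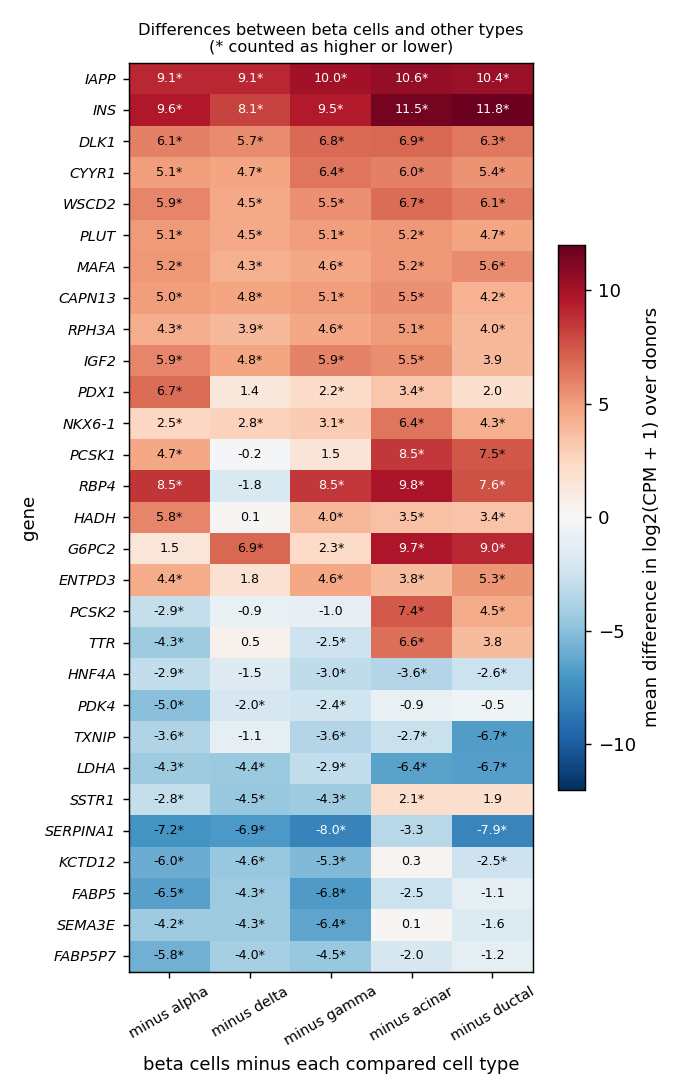
Mean differences in log2(CPM + 1) over donors between beta cells and 5 other types for 29 genes (rows); red is higher and blue lower in beta cells, and an asterisk marks a gene counted as higher or lower. The upper 10 genes are red in every column, RBP4, PCSK1 and HADH are near or below 0 in the delta column, and the lower 5 genes are blue in the 3 endocrine columns.

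In a list of 30 genes known for higher levels in beta cells, 18 of 29 counted were higher against alpha cells, 10 of 28 against delta cells and 16 of 30 against gamma cells, and none was lower, beside 1.71%, 2.17% and 3.38% of all counted genes higher. The list's median difference was 3.58, 1.74 and 2.61, beside -0.23, 0.10 and -0.03 over all counted genes. The list was drawn up with results of these data known, so these counts are no independent support for it. Several of its members set beta cells apart from alpha cells but not from delta cells. RBP4, the retinol carrier, ran from 959 to 10108 CPM (median 2268) in beta cells, from 0.938 to 69.3 CPM (median 4.01) in alpha cells and from 5044 to 15419 CPM (median 7778) in delta cells. Its differences were 8.53 ± 2.32 and -1.84 ± 0.94. HADH, a mitochondrial enzyme of fatty acid oxidation that restrains insulin release, ran from 529.8 to 807 CPM (median 685) in beta, from 1.6 to 38 CPM (median 11.6) in alpha and from 438 to 1073 CPM (median 569) in delta cells. CASR, the calcium-sensing receptor, ran from 101 to 230.02 CPM (median 143) in beta, from 0.0569 to 7.78 CPM (median 0.301) in alpha and from 74.7 to 322 CPM (median 203) in delta cells. TGFBR3, a co-receptor of transforming growth factor beta, differed by 5.55 ± 1.17 from alpha cells and had a mean difference of 0.00 ± 1.38 from delta cells, and SCD5, a fatty acid desaturase, by 6.62 ± 1.14 and 0.36 ± 0.86.

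Other members separated beta from delta cells as well. ADCYAP1, which encodes the neuropeptide PACAP, ran from 54.4 to 177 CPM (median 95.5) in beta and from 0 to 16.2 CPM (median 0.176) in delta cells, a difference of 5.35 ± 1.81. TSPAN1, a tetraspanin, differed by 4.93 ± 2.44 and MEG3, a maternally expressed non-coding RNA of the imprinted locus that also holds DLK1, by 4.25 ± 2.87. Over donors MEG3 ran from 312 to 525 CPM (median 380.1) in beta cells, a narrower range than that of DLK1. PFKFB2, which sets the level of a glycolytic activator, ran from 154 to 953 CPM (median 392) in beta cells and differed by 3.55 ± 1.13 from alpha and 2.09 ± 0.42 from delta cells. Leaving hormones out of the totals brought the latter to 1.89. HOPX and CDKN1C, a homeodomain protein and a cell cycle inhibitor, counted as higher against delta cells (2.61 ± 1.17 and 2.33 ± 1.81) and not against alpha cells (0.91 ± 0.68 and 0.56 ± 0.35). Without 1 donor the CDKN1C difference was 1.67. Against gamma cells, PPP1R1A, an inhibitor of protein phosphatase 1, differed by 6.42 ± 0.62, NPTX2, a secreted pentraxin, by 6.60 ± 1.39 and SLC30A8, the zinc transporter of insulin granules, by 2.72 ± 0.39.

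Among 28 islet transcription factors, 4 of 22 counted were higher and 4 lower against alpha cells, 3 and 1 of 19 against delta cells, and 4 and 3 of 21 against gamma cells, beside 1.71%, 2.17% and 3.38% of all counted genes higher and 4.83%, 2.18% and 6.69% lower. The median differences of these factors were -0.09, 0.10 and -0.58, against -0.23, 0.10 and -0.03 for all counted genes. The higher ones included PDX1, NKX6-1 and MAFA. GLIS3 counted as higher against alpha cells (2.11 ± 1.41), which leaving out 1 donor took to 1.61, and MNX1 against delta cells (2.44 ± 1.92), which leaving out 1 donor took to 1.73. The alpha-cell factor IRX2 was at most 0.266 CPM in beta cells and at least 47.6 CPM in alpha cells. FEV, a factor of serotonergic cells, differed by -5.47 ± 1.53 from alpha cells, and HHEX, which marks delta cells, by -6.69 ± 0.77 from delta cells. HNF4A, a nuclear receptor linked to monogenic diabetes, ran from 0.49 to 14.4 CPM (median 8.67) in beta cells against from 25 to 94.8 CPM (median 46.5) in alpha and from 18.9 to 202 CPM (median 66.5) in gamma cells, with differences of -2.91 ± 1.27 and -3.04 ± 1.10.

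The granins and prohormone-processing enzymes, which package and cut hormone precursors, were described with 14 genes. Of these 1 of 14 was higher and 3 lower against alpha cells, 0 of 14 against delta cells in either direction, and 1 of 14 lower against gamma cells, beside 1.71%, 2.17% and 3.38% of all counted genes higher and 4.83%, 2.18% and 6.69% lower, so the gamma count is near that of all genes. The list's median difference was -0.78, 0.10 and -0.99, beside -0.23, 0.10 and -0.03 over all counted genes. PCSK1, the convertase that makes the first cuts in proinsulin, ran from 136 to 496 CPM (median 398) in beta cells, from 4.01 to 18.9 CPM (median 13.4) in alpha cells and from 165 to 599.6 CPM (median 322) in delta cells. It differed by 4.65 ± 1.27 from alpha cells. PCSK2, the convertase that makes glucagon, went the other way, from 167 to 353 CPM (median 324) in beta and from 1099.99 to 3179.6 CPM (median 2172) in alpha cells, a difference of -2.88 ± 0.83. CHGB and VGF, of the granin family, differed from alpha cells by -2.76 ± 1.11 and -3.49 ± 0.74, and SCG2 counted as lower against gamma cells (-2.14 ± 0.84), a call that TMM scaling ended at -1.86. Against acinar cells, with 2 donors, all 14 were higher, and against ductal cells 13 of 14, beside 10.3% and 5.5% of all counted genes. The list's medians there were 7.68 and 5.55, beside 0.15 and -0.42 over all counted genes.

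Of the genes of glucose entry and phosphorylation, 1 of 8 counted was higher against alpha, 2 of 8 against delta, and 3 of 9 higher and 1 lower against gamma cells, beside 1.71%, 2.17% and 3.38% of all counted genes higher and 4.83%, 2.18% and 6.69% lower. Medians of the list were 0.88, 1.14 and 0.37, against -0.23, 0.10 and -0.03 for all counted genes. G6PC2, an islet glucose-6-phosphatase, ran from 551 to 3407 CPM (median 939) in beta, from 284 to 854 CPM (median 358) in alpha and from 0.164 to 63.2 CPM (median 15.8) in delta cells. It differed by 6.86 ± 2.09 from delta and 2.30 ± 0.43 from gamma cells. SLC2A2, the transporter GLUT2, given outside the rule, ran from 0 to 31.8 CPM (median 4.98) in beta cells, with 1 donor at 0, and was at 0 in all 5 delta donors. SLC2A1, the transporter GLUT1, ran from 14.5 to 55.9 CPM (median 39.6) in beta cells and counted as higher against gamma cells only (2.52 ± 1.88), a call lost without 1 donor at 1.65, and SLC2A3, the transporter GLUT3, counted as lower there (-3.81 ± 1.84).

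Beta cells are known to keep a set of housekeeping metabolic genes low, and LDHA, TXNIP and PDK4 counted as lower in some comparisons. LDHA, which turns pyruvate into lactate, ran from 0.398 to 21.6 CPM (median 4.82) in beta cells, from 55.1 to 175 CPM (median 125) in alpha, from 57.4 to 259 CPM (median 143) in delta and from 29.1 to 73.6 CPM (median 45.3) in gamma cells, none of which overlapped beta cells. Its differences were -4.27 ± 1.43, -4.42 ± 2.38 and -2.92 ± 1.77. SLC16A1, a lactate and pyruvate carrier, and HK1, a high-affinity hexokinase, were at most 0.133 and 0.98 CPM in beta cells, and neither counted as different from an endocrine type. TXNIP, an inhibitor of thioredoxin induced by glucose, ran from 0 to 12.7 CPM (median 2.9) in beta cells and differed by -3.62 ± 1.08 from alpha and -3.55 ± 2.77 from gamma cells. PDK4, which switches off pyruvate dehydrogenase, ran from 2.41 to 75.8 CPM (median 17.1) in beta and from 37.8 to 4998 CPM (median 544) in alpha cells, a difference of -4.98 ± 3.34. Its call against delta cells (-2.02 ± 1.88) was lost with TMM scaling (-1.89) and in other alternatives. Among them were 10 cells required (-1.43) and 1 donor left out (-1.26). In all, 3 of 12 counted genes of this list were lower and 1, HADH, higher against alpha cells, 2 of 9 lower against delta cells, and 3 of 12 lower and 1 higher against gamma cells, beside 1.71%, 2.17% and 3.38% of all counted genes higher and 4.83%, 2.18% and 6.69% lower. The medians over the list were -1.23, 0.15 and -1.38, against -0.23, 0.10 and -0.03 for all counted genes. The gamma difference of PDK4 (-2.36 ± 3.00) was -0.87 where at least 10 cells of a type were required.

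Of 28 channel genes, 1 of 16 counted was lower and none higher against alpha cells, none of 15 differed against delta cells, and 2 of 19 were higher and 4 lower against gamma cells. Over all counted genes 4.83% were lower against alpha cells, and 3.38% were higher and 6.69% lower against gamma cells, so the alpha count is near that of all genes. Channel genes had medians of -0.39, -0.01 and -0.80, against -0.23, 0.10 and -0.03 for all counted genes. ABCC8 and KCNJ11, the subunits of the ATP-sensitive potassium channel, are named outside the rule. ABCC8 ran from 338 to 1511 CPM (median 1011) in beta and from 204 to 1441 CPM (median 385) in alpha cells. KCNJ11 ran from 2.26 to 65.6 CPM (median 30.5) and from 11 to 40 CPM (median 17.2) in the same order. KCNH6, a voltage-gated potassium channel, was the one that differed from alpha cells, from 0 to 8.11 CPM (median 2.36) in beta against from 34.8 to 119 CPM (median 68.3) in alpha cells, and also differed from gamma cells by -4.91 ± 0.74. Against gamma cells the tandem-pore potassium channels KCNK16 and KCNK17 were higher (6.35 ± 1.81 and 3.47 ± 1.68). The calcium channel CACNA1H and the potassium channel KCNH2 were lower there (-2.60 ± 0.81 and -2.05 ± 1.55). KCNH2 was no longer so with TMM scaling (-1.77) or without 1 donor (-1.41). Of 28 exocytosis genes, 2 of 25 were higher against alpha cells, RPH3A and the synaptotagmin SYT13 (2.87 ± 0.55), and 1 of 24 against delta cells, RPH3A. Against gamma cells 2 of 25 were higher, RPH3A and SLC30A8. There 1 was lower, CADPS2 (-3.44 ± 2.15), which without 1 donor, at -2.60, fell under the filter of 10 CPM. Beside these stand 1.71%, 2.17% and 3.38% of all counted genes higher and 4.83%, 2.18% and 6.69% lower, so single genes of 24 or 25 are near the share of all genes, and list medians of 0.09, 0.01 and -0.25, against -0.23, 0.10 and -0.03. The SNARE genes STX1A, SNAP25 and VAMP2, whose products fuse granules with the membrane and which are named outside the rule, counted as different from no endocrine type.

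P2RY1, the receptor removed in the mouse line of the series, was measured in beta cells of all 6 donors, from 9.42 to 41.5 CPM (median 30.2). It was at most 0.1 CPM in alpha cells, at 0 in gamma cells of all 4 donors, and at 0 and 0.0164 CPM in the 2 acinar donors. Delta cells held 3.15, 21, 58.8, 69 and 102 CPM, a range that enclosed that of beta cells, and ductal cells 0, 3.09, 3.21, 4.78 and 5.35 CPM. The differences were 4.65 ± 0.72 against alpha, -0.43 ± 2.15 against delta, 4.70 ± 0.90 against gamma, 5.23 ± 0.26 against acinar and 2.78 ± 0.48 against ductal cells, and all but the delta difference counted as higher. With a pseudocount of 10 CPM those from alpha, gamma and ductal cells fell to 1.83, 1.85 and 1.40, under the limit of 2, where the pseudocount is of the order of the level in beta cells.

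A P2RY1 count was found in 64 of 164 beta cells (39%), between 8.57% and 68.8% by donor, in 19 of 59 delta cells (32.2%), 22 of 135 ductal cells (16.3%) and 6 of 437 alpha cells (1.37%). It was found in 0 of 74 gamma cells, which allows a share of up to 4.05% of cells with a count at this depth, as far as counting error goes, and sets no limit on cells that express the gene. Thinned to 100000 counts, the shares were 33.8% of 142 beta cells, 28.6% of 49 delta cells and 14.9% of 114 ductal cells, and 0 of 382 alpha cells. Median depths before thinning were 547765 counts in beta and 462289 in alpha cells. In the rarer types, pooled over donors, P2RY1 was at 17.3 CPM in stellate cells, with a count in 3 of 23 cells, 9.46 CPM in co-expression cells, with a count in 11 of 25, 2.70 CPM in unclassified endocrine cells, 1.74 CPM in endothelial cells, and at 0 in the 5 epsilon and 4 mast cells.

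Other genes of nucleotide signalling were few in beta cells: of 30 purinergic receptors and nucleotide-cleaving enzymes, 4 averaged at least 10 CPM, 22 were under 1 CPM and 10 had no count. P2RX4, an ATP-gated cation channel and the other receptor above 10 CPM, ran from 17 to 50.9 CPM (median 31.7) in beta, from 48.6 to 244 CPM (median 103) in alpha and from 0.329 to 76.8 CPM (median 22.2) in delta cells, and counted as different from none of the 5 types (from alpha cells -1.74 ± 0.74). ENTPD3, an enzyme on the cell surface that removes phosphates from ATP and ADP, ran from 66.9 to 145 CPM (median 82.6) in beta and from 0.519 to 11.5 CPM (median 3.21) in alpha cells. It differed by 4.41 ± 1.24 from alpha and 4.61 ± 1.20 from gamma cells, against 1.80 ± 1.34 from delta cells. Against acinar cells it counted as higher at 3.78 ± 4.24, and leaving out 1 of the 2 donors left a difference of 0.78. ADORA2A, an adenosine receptor, was at most 1.06 CPM in beta cells and ran from 23.5 to 66.8 CPM (median 50) in alpha cells, a difference of -5.18 ± 0.57. ENTPD2 counted as lower against gamma cells (-3.14 ± 0.80). By count, 2 of 5 genes were higher and 1 lower against alpha cells, 0 of 6 differed from delta cells, and 2 of 5 were higher and 1 lower against gamma cells, beside 1.71%, 2.17% and 3.38% of all counted genes higher and 4.83%, 2.18% and 6.69% lower. The counted genes had medians of -1.63, 0.15 and 0.26, against -0.23, 0.10 and -0.03 for all.

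Downstream of Gq, 3 of 19 counted genes were higher and 3 lower against alpha cells, 0 of 17 higher and 1 lower against delta cells, and 3 of 20 higher and 1 lower against gamma cells, beside 1.71%, 2.17% and 3.38% of all counted genes higher and 4.83%, 2.18% and 6.69% lower. Single lower genes against delta and gamma cells are near those shares. Medians of this list were -0.55, -0.25 and -0.39, against -0.23, 0.10 and -0.03 for all counted genes. The inositol trisphosphate receptor genes, whose products release stored calcium, divided between the types. ITPR3 ran from 18 to 149 CPM (median 76.3) in beta and from 1.45 to 29.5 CPM (median 9.46) in alpha cells (2.80 ± 0.70). ITPR1 ran from 0.0962 to 9.24 CPM (median 1.56) and from 28.9 to 51.5 CPM (median 47.7) (-3.92 ± 1.44). PRKCA, a protein kinase C, differed by 3.15 ± 1.24 from alpha and 4.65 ± 1.02 from gamma cells, and PLCE1, a phospholipase C, by -5.69 ± 1.08 from alpha cells. Regulators of G-protein signalling divided too: RGS16 ran from 41.9 to 373 CPM (median 71.3) in beta and from 0.0284 to 0.833 CPM (median 0.102) in alpha cells. RGS4 ran from 7.52 to 24.9 CPM (median 13.6) and from 104 to 646 CPM (median 285) in the same order. RGS2 was lower than in delta cells (-3.68 ± 0.82).

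Of 30 other G-protein-coupled receptors, 4 of 17 counted were higher and 3 lower against alpha cells, 1 of 13 higher and 1 lower against delta cells, and 3 of 13 higher and 2 lower against gamma cells, beside 1.71%, 2.17% and 3.38% of all counted genes higher and 4.83%, 2.18% and 6.69% lower. These receptors had medians of -0.09, -0.10 and 0.31, against -0.23, 0.10 and -0.03 for all counted genes. The receptors for the incretin GLP-1 and for glucagon, GLP1R and GCGR, ran from 2.89 to 35.5 CPM (median 18.6) and from 5.09 to 46.9 CPM (median 33.1) in beta cells. They were at most 0.2 and 0.493 CPM in alpha cells, with differences of 3.96 ± 1.20 and 4.56 ± 1.10. In delta cells GLP1R stood at 0, 1.22, 10.8, 15.7 and 21.8 CPM and GCGR at 3.15, 4.4, 6.86, 13.5 and 19.2 CPM, overlapping beta cells. A GLP1R count was found in 74 of 164 beta cells (45.1%), 14 of 59 delta cells (23.7%) and 4 of 437 alpha cells (0.915%), and a GCGR count in 79 of 164 beta cells (48.2%) and 13 of 437 alpha cells (2.97%). With a pseudocount of 10 CPM the differences from alpha cells were 1.44 and 1.89, under the limit. The fatty acid receptors divided by cell type. FFAR1 ran from 63.5 to 212 CPM (median 173) in beta cells and stood at 0, 0, 0.164, 0.187 and 30.4 CPM in delta cells (6.17 ± 2.11). FFAR4 ran from 15 to 92.6 CPM (median 35.5) in beta, from 0 to 0.555 CPM (median 0.102) in alpha and from 22 to 152 CPM (median 92.8) in delta cells (5.02 ± 0.80 against alpha cells). Among receptors that were lower, SSTR1, a somatostatin receptor, differed by -2.83 ± 1.97, -4.51 ± 1.57 and -4.29 ± 2.15 from alpha, delta and gamma cells, although the alpha call ended with TMM scaling (-2.71), where the sign was no longer the same in every donor. GPR119, a lipid receptor, differed by -4.48 ± 0.71 and the adrenergic receptor ADRB1 by -3.02 ± 1.87 from alpha cells. Without 1 donor the ADRB1 difference was -2.40, but the gene fell under the filter of 10 CPM. With a pseudocount of 10 CPM it was -1.03, and neither counted. The muscarinic receptor CHRM3 differed by -4.96 ± 1.95 from gamma cells.

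**Figure D3:**
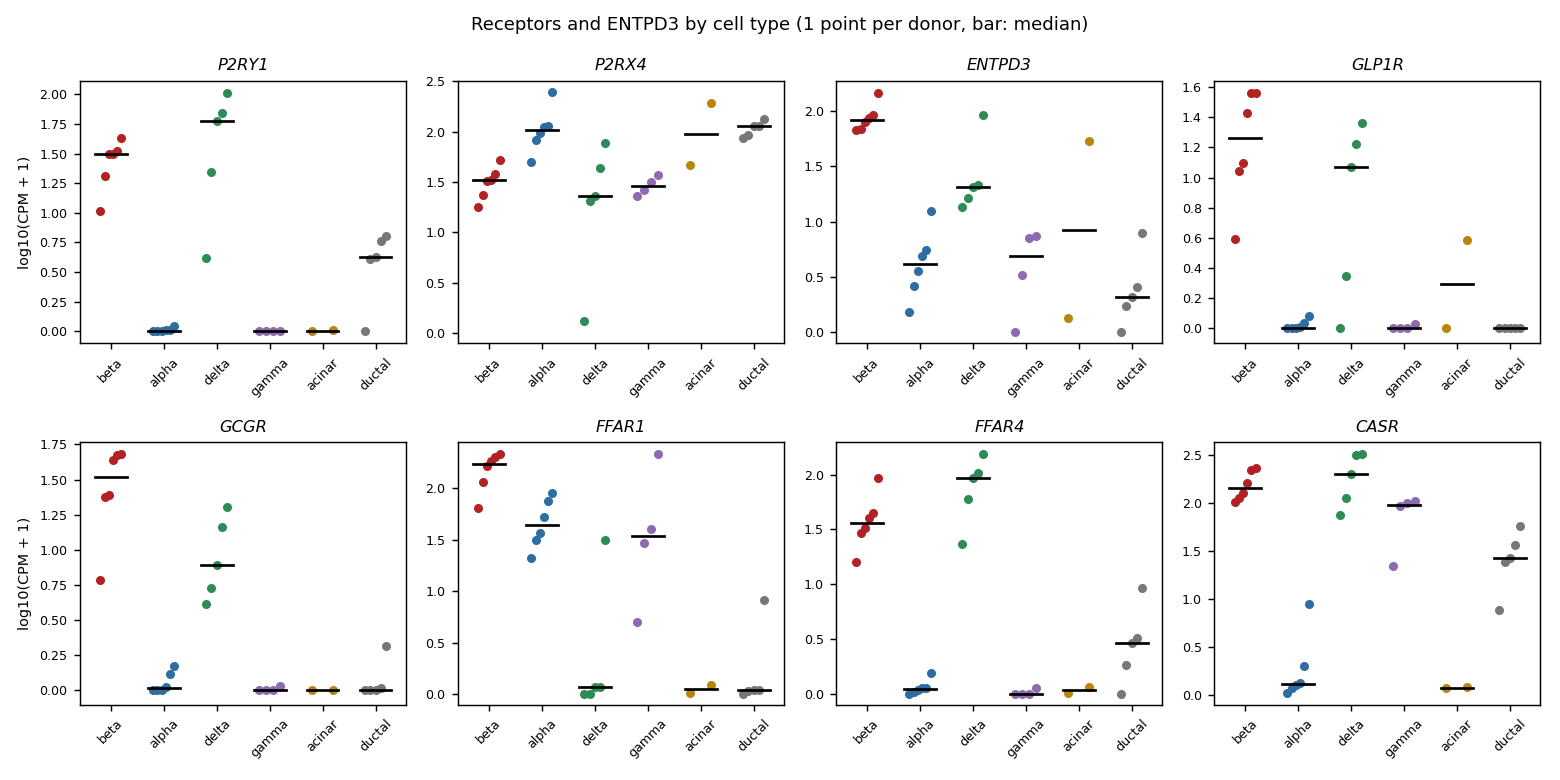
Levels of P2RY1, P2RX4, ENTPD3 and 5 other receptor genes as log10(CPM + 1) in 6 cell types; each point is 1 donor's summed cells and the black bar is the median of the points. P2RY1, GLP1R, GCGR and FFAR4 are seen in beta and delta cells and lie near 0 in alpha and gamma cells, while FFAR1 is near 0 in 4 of 5 delta donors.

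Few clock or endoplasmic reticulum genes counted as different, and their counts stand beside 1.71%, 2.17% and 3.38% of all counted genes higher and 4.83%, 2.18% and 6.69% lower against alpha, delta and gamma cells. With 1 or 2 genes each, nothing is read from them about the lists. Clock genes had medians of 0.05, 0.20 and -0.29 and endoplasmic reticulum genes -0.06, 0.34 and 0.69, against -0.23, 0.10 and -0.03 for all counted genes. Of the clock genes, 1 of 20 was higher against alpha cells, the repressor BHLHE41. Lower were 1 of 21 against delta cells, RORB (-2.25 ± 1.28), and 1 of 22 against gamma cells, RORA (-2.22 ± 1.87). The RORA call was lost with TMM scaling (-1.96), with a mean over cells (-1.82) and without 1 donor (-1.35). BHLHE41 ran from 15.6 to 33 CPM (median 22.1) in beta and from 0 to 4.51 CPM (median 0.0544) in alpha cells, a difference of 3.87 ± 1.10. Without 1 donor the RORB difference was -1.76. Of 27 endoplasmic reticulum genes none differed against alpha cells, 2 were higher against delta cells, the stress genes DDIT3 (2.22 ± 1.58) and TRIB3 (3.23 ± 2.51), and 1 against gamma cells, the chaperone DNAJB9 (2.22 ± 0.39, no longer counted with a mean over cells at 1.96). DDIT3 ran from 29.9 to 725 CPM (median 160.4) and TRIB3 from 37.7 to 355 CPM (median 72.1) over the donors' beta cells, and without 1 donor the DDIT3 difference was 1.51.

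Immediate-early genes, which cells switch on shortly after a stimulus, were counted over 12, 11 and 12 members. Lower were 3 of 12 against alpha, 1 of 11 against delta and 5 of 12 against gamma cells, beside 4.83%, 2.18% and 6.69% of all counted genes. IER3 was higher against gamma cells (3.21 ± 0.75). The list's median difference was -1.03, -0.76 and -1.60, beside -0.23, 0.10 and -0.03 over all counted genes. FOS, an AP-1 subunit, ran from 13.5 to 135 CPM (median 27.5) in beta, from 30.5 to 404 CPM (median 145) in alpha and from 219.5 to 1079.6 CPM (median 342) in gamma cells (-3.51 ± 1.39 against gamma cells). ZFP36, which destabilises messenger RNA, ran from 0.531 to 18.2 CPM (median 6.76) in beta and from 17.2 to 249 CPM (median 78.6) in alpha cells (-3.38 ± 0.81). NR4A1, a nuclear receptor, and BTG2, an antiproliferative gene, differed from alpha cells by -3.05 ± 2.50 and -2.47 ± 1.60. IER2 differed by -2.91 ± 2.06 from delta cells, which requiring 10 cells of a type took to -1.77, and by -2.59 ± 1.17 from gamma cells. FOSB differed by -3.47 ± 2.44 and JUNB by -2.05 ± 1.46 from gamma cells. The JUNB call ended with TMM scaling at -1.78 and without 1 donor at -1.39. The FOS ranges of beta and alpha cells overlapped.

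**Figure D4:**
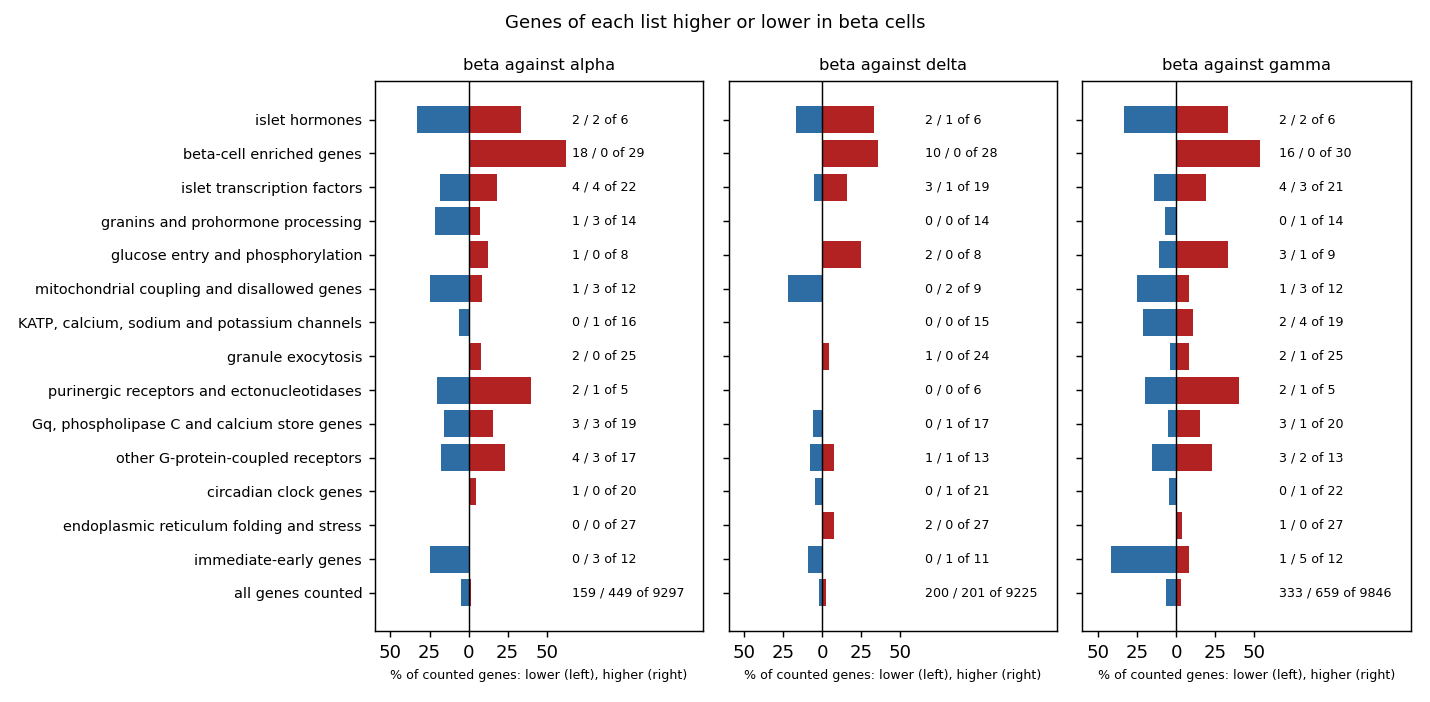
Percent of the counted genes of each list (rows) that were higher (red, right) or lower (blue, left) in beta cells than in alpha, delta and gamma cells; the numbers give genes higher / lower of genes counted, and the bottom row gives all counted genes. The list of beta-cell enriched genes has 18 of 29 genes higher against alpha cells and 10 of 28 against delta cells.

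The share of a cell's counts that came from insulin differed widely among beta cells. INS took 0.361% to 37.8% of a beta cell's counts, with a median of 15.7% and quartiles of 8.5% and 23%. The donors' medians ran from 5.72% to 25.1%. In 22 of 164 cells the share was under 5% and in 2 under 1%. IAPP took 0.311% of counts at the median and up to 3.52%, and 3 cells had none.

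**Figure D5:**
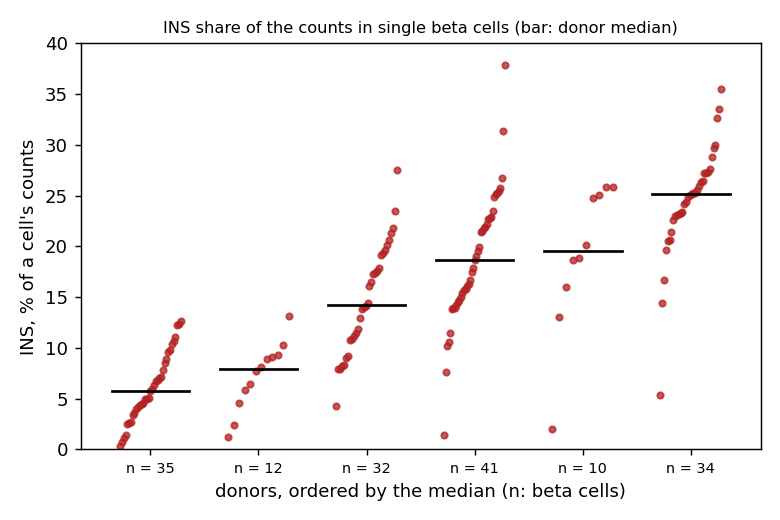
INS as a percent of each beta cell's counts (points, 164 cells) for the 6 donors, ordered by their medians (black bars), with the number of cells under each. Cells of 1 donor span a wide range, and the donors' medians run from 5.72% to 25.1%.

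With INS left out of the totals that scale gene levels, the INS level was correlated with 24 other measures across the cells of each donor. TXNIP was taken only in the 5 donors, with 152 cells, in which it varied. The values are a description of 164 cells in 6 donors, whose cells differ in depth and share a donor. The median Pearson and Spearman correlations over donors were 0.34 and 0.02 for IAPP, 0.33 and 0.10 for G6PC2, 0.20 and 0.13 for MAFA, and 0.07 and 0.01 for PDX1. Single donors ranged widely, with Pearson values from -0.15 to 0.80 for NKX6-1, -0.06 to 0.76 for ABCC8 and -0.04 to 0.74 for G6PC2. RBP4 was negative in all 6 donors, from -0.48 to -0.06 by Pearson and with a Spearman median of -0.21. The mitochondrial percent of a cell's counts was also negative in all 6 donors by Pearson, from -0.58 to -0.0033. Its Spearman median was -0.25, with values up to 0.09. That percent was taken of all counts, INS included, so a higher INS share lowers it by construction and nothing is read from its sign. The part of the mitochondrial percent in the other correlations was not tested. Total counts and the sum of the endoplasmic reticulum list stood at Pearson medians of 0.04 and 0.16.

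Of 19 genes reported to vary among beta cells, some also differed between types. ID1, a target of BMP signalling, ran from 41.9 to 169 CPM (median 139) in beta cells and differed by 3.34 ± 2.08 from alpha and 2.11 ± 1.0 from delta cells. Leaving hormones out of the totals took the latter to 1.92. NPY, neuropeptide Y, ran from 2.79 to 130.1 CPM (median 44.4) and differed by 2.14 ± 0.97 from alpha and 5.73 ± 0.89 from gamma cells. Averaging over cells took the alpha difference to 1.49. CD9, a tetraspanin used to sort beta-cell subtypes, ran from 2.66 to 30.3 CPM (median 9.89) in beta cells. It ran from 0 to 5.23 CPM (median 0.191) in alpha and from 55.1 to 186 CPM (median 136) in delta cells. CD9 was higher than in alpha (2.77 ± 0.68) and lower than in delta cells (-3.38 ± 0.86). Without 1 donor the alpha difference was 2.86, but CD9 then fell under the filter of 10 CPM and was no longer counted. LEPR, the leptin receptor, differed by -5.98 ± 1.51 from delta cells, and ID2 by -2.96 ± 1.02 from gamma cells.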

How the data were processed

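Single cells of human islets, first published by another group, were quantified again by the authors of the series with RSEM 1.3.3 on Hg38 (GRCh38.p12), per the series' design text. The deposited matrix holds estimated counts per gene and cell, already whole numbers; strand handling is not given in the sources used here. Cell types came from the deposited annotation. No doublet caller was run, and the annotation has a class of its own for co-expressing cells. Counts were summed per donor and type and scaled to CPM in Python 3.11.15 (numpy 2.4.6, pandas 2.3.3); TMM factors came from edgeR 4.0.16 in R 4.3.3. The pseudocount was 1 CPM, the filter a mean of 10 CPM in either type and the minimum 5 cells per donor. The procedure was tested on simulated data. Named genes were the 5 markers, list members that differed from an endocrine type, P2RY1 and purinergic receptors of at least 10 CPM, the 10 genes highest and the 5 lowest by their least favourable comparison; exceptions are marked in the text. Members and gene lists were chosen with earlier results of these data known. Intervals and limits cover counting error only. Alternatives were another pseudocount, other filters and scalings, a mean over cells and leaving out each donor. Diabetes was not compared, because all donors of the matrix were labelled normal. Results of a few genes are not reported here.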

Additional observations from a re-analysis of the deposited data

Results flagged for a closer look

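In beta cells, 1 of the 6 donors stood apart from the other 5 for 19 of 109 genes examined. Each time it was the highest, by a gap above Dixon's limit for 6 samples. For normally distributed values about 1 of 20 genes would pass that limit by chance. It was applied to untransformed CPM, which cannot be negative and can be skewed upward, so 19 of 109 is not read as an excess over chance. The outlying donor was not always the same one. SST, the delta-cell hormone, reached 1022 CPM in 1 donor against 179 in the next. A single beta cell drew 6.46% of its counts from SST, and the part of that cell in this value was not tested. Among the 10 highest and 5 lowest genes of the comparisons, DLK1 reached 2406 CPM against 145, SERPINA1 reached 48.6 CPM against 7.84 and SEMA3E reached 8.47 CPM against 0.381. Among beta-cell enriched genes, RGS16 reached 373 CPM against 115, PFKFB2 reached 953 CPM against 450.0 and RBP4 10108 against 2998. Among receptors and enzymes of signalling, ENTPD3 reached 145 CPM against 90.6, ADORA2A reached 1.06 CPM against 0.381, PLCE1 reached 10.4 CPM against 2.60, FFAR4 reached 92.6 CPM against 43.2 and CHRM3 25.8 against 1.80. Among stress, metabolic and other genes, TRIB3 reached 355 CPM against 98.2, PDK4 reached 75.8 CPM against 24.1, FOSB reached 3.96 CPM against 1.20, FEV reached 2.43 CPM against 0.266, SLC2A3 reached 4.12 CPM against 0.973, HK1 reached 0.980 CPM against 0.0442 and CADPS2 0.163 against 0.0190.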

How the results depend on the processing

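Leaving out each donor in turn gave 161 to 189 genes higher and 442 to 546 lower against alpha cells, 217 to 306 and 231 to 307 against delta, 300 to 595 and 681 to 926 against gamma, 988 to 1184 and 841 to 1281 against acinar, and 538 to 677 and 1328 to 1442 against ductal cells. With a pseudocount of 10 CPM, 50 genes were higher and 104 lower against alpha cells, 35 and 40 against delta, 59 and 119 against gamma, 313 and 367 against acinar, and 180 and 582 against ductal cells. With a filter of 50 CPM, which tests fewer genes, the counts were 55 and 131, 64 and 54, 105 and 181, 299 and 386, and 204 and 628 in the same order. Requiring 10 cells of a type left 3 donors for delta cells and gave 334 higher and 369 lower. TMM scaling moved the median of all counted genes from -0.42 to -0.03 against ductal and from -0.03 to 0.23 against gamma cells. Of 299 differences of named genes that counted, 209 still did with a pseudocount of 10 CPM, 295 without hormones and acinar enzymes in the totals, 291 with TMM scaling, 291 with 10 cells required and 286 with a mean over cells; 0 reversed. With the 2 alternatives chosen after seeing the data, 295 still counted without mitochondrial transcripts and 296 without cells holding another hormone. By replicate number, no paired analysis was possible because the libraries that carry such numbers, those of the mouse line, were not used here. The differences between cell types are themselves paired, since each was taken within donors. Depth limits genes near 0, where a count of 0 does not show absence.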

Other observations

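Outside the 164 beta cells, 25 cells were labelled co-expression. INS took a median of 8.67% of their counts and GCG 3.91%, with INS between 0.0124% and 20.6% by cell. They had a median of 8623 genes with a count, against 5406 in beta cells. The 29 cells labelled unclassified endocrine held a median of 1721 genes, and mitochondrial transcripts took a median of 74.4% of their counts. INS took a median of 0.0920% of the counts of these cells and up to 38.2% in a single cell.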
